A study of Mus musculus with 7 samples.

Results

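The transcripts of 9 genes of the actin cytoskeleton were examined: the cytoplasmic actins Actb and Actg1, the filament turnover genes Cfl1, Pfn1 and Cap1, the filament-binding and LIM-domain genes Cnn2, Lasp1 and Tes, and the filament elongation gene Enah. Every probe set with 1 of these symbols in the platform annotation was taken, Affymetrix control probe sets left out, which gave 26 of 45101 probe sets (9 of 18193 genes with a single-symbol probe set). Of the 26 probe sets, 24 passed the filter on low signal described below, among 27022 that did. The 7 samples are RNA pools of D3 mouse embryonic stem cells, an established line, each hybridised to its own Affymetrix mouse expression array. They form 5 calreticulin knockout libraries and 2 wild type libraries. Both groups are D3 cells, and the labels name no treatment. Calreticulin is a chaperone that folds glycoproteins and stores calcium in the endoplasmic reticulum. Each library pooled several cultures harvested together, and how many knockout clones lie behind the 5 libraries is unstated. The p-values below therefore cover the spread among these RNA pools only.

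Actin monomers assemble at the fast-growing (barbed) end of a filament and leave from the other. Cofilin, the product of Cfl1, severs old filaments, cyclase-associated protein (Cap1) helps to recycle the released monomers, and profilin (Pfn1) hands them back to growing ends. Mena, the product of Enah, elongates barbed ends, and calponin 2 (Cnn2), Lasp1 and testin (Tes) bind filaments or the adhesions in which they end. Several of these genes, the actins among them, are known targets of serum response factor, which binds the CArG box and is held in check by free actin monomers through its MRTF cofactors.

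The brightest probe set of Calr, the targeted gene on chromosome 8, had signals of 858, 1055, 1064, 577 and 1006 in knockout libraries 1 to 5, against 12460 and 10840 in wild type libraries 1 and 2 (log2 difference -3.68, SE 0.30, limma adjusted p = 0.00595). Each knockout signal was thus far under the lower wild type signal, though whether this probe set lies in the deleted part of the gene is not known here. Among the 7 libraries, knockout libraries 2 and 3 formed a pair of their own. Their Pearson correlation over the tested probe sets, which are not independent points, was 0.985 with each other and 0.843 to 0.902 with the remaining libraries, which gave 0.920 to 0.972 among themselves. Their mean signals of the spiked-in Lys poly-A control were 11879 and 9274, where the remaining libraries gave 4027 to 4797. All 8 embryonic stem cell markers were past the signal filter, with summed signals of 70909 to 102375 in the knockout group, against 74197 and 89751 for wild type. Of these 8, 3 were lowest in knockout libraries 2 and 3 and 1, Tdgf1, was highest there. Pou5f1 read 4891 and 4687 in this pair and 8770 to 11549 in knockout libraries 1, 4 and 5, against 11726 and 10184 in wild type libraries; Nanog and Esrrb, at 4841 and 4601 and at 2874 and 2906 in the pair, were the others. Of 9 fibroblast or feeder cell markers on the array, 7 were highest in knockout libraries 2 and 3; their summed signal was 4657 and 4362 there, 623 to 1091 in knockout libraries 1, 4 and 5, against 1428 and 1192 for wild type, and no marker was at 0. The part of these properties in the results below was not tested, so results are also given without knockout libraries 2 and 3. In RNA pools a lower signal from fewer cells of a type and from less RNA per cell cannot be told apart.

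Most actin cytoskeleton transcripts had lower signals in the knockout group, and the lowest signals came from knockout libraries 2 and 3. By the brightest probe set, 8 of the 9 genes had a negative difference, from -0.01 for Actb to -1.14 for Pfn1, and Enah had a positive one of 0.36. None of the 24 tested probe sets passed the threshold (limma with Benjamini-Hochberg adjustment over all probe sets, adjusted p from 0.575 to 0.994), where 0.0296% of all tested probe sets did. An unadjusted p under 0.05 was found for 1 of the 24, and for 8.42% of all tested probe sets. The median difference was -0.53 on the log2 scale over the 24, with 19 of them negative, against 0.068 over all tested probe sets, of which 44.1% were negative. Centring each array on its median moved the median of all tested probe sets to -0.050 and their negative share to 54.3%. There 19 of the 24 were negative too, with a median of -0.65. With quantile normalization 18 of the 24 were negative, with a median of -0.46. The median of all tested probe sets was then -0.029, with 52.4% negative. The pair of knockout libraries 2 and 3 was lowest of the 7 libraries for 15 of the 24 probe sets, against 20.9% of all tested, and highest for 3 of the 24, against 26.9%. With this pair left out, 16 of the 24 were negative, with a median of -0.17 against 0.032 over all tested probe sets, and 0 passed the threshold (adjusted p from 0.820 to 0.996), where 0.0185% of all did. With the pair kept and given a term of its own in the fit, 0 of the 24 passed (limma adjusted p from 0.563 to 0.994), where 0.0370% of all did.

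**Figure D1:**
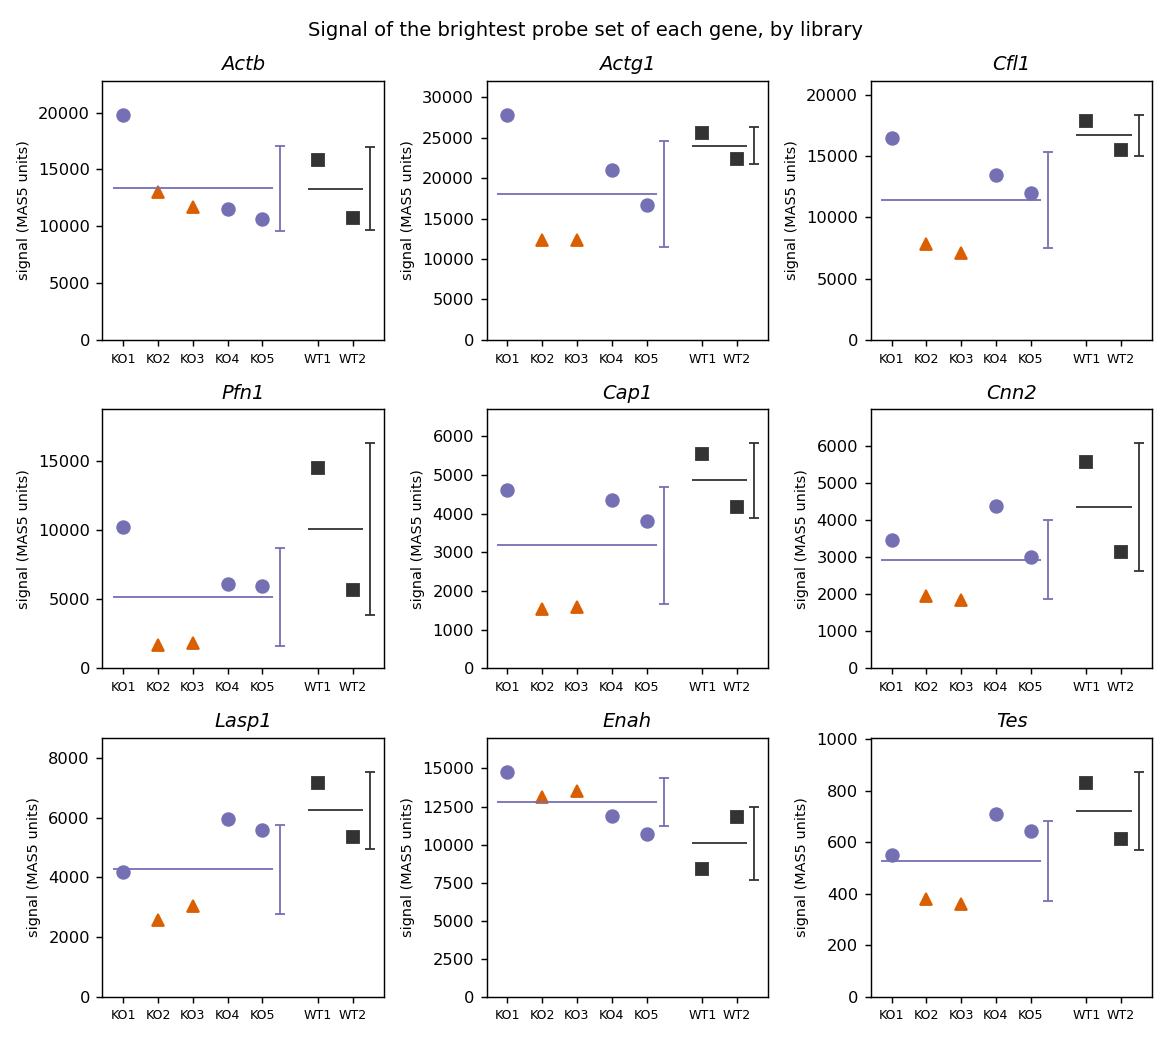
Signal of the brightest probe set of each gene (linear MAS5 units, vertical axes from 0) in knockout libraries KO1 to KO5 and wild type libraries WT1 and WT2. Triangles are knockout libraries 2 and 3, circles the other knockout libraries, squares wild type libraries; lines are group means and bars 1 SD. For 7 genes the triangles are the lowest points, while Actb and Enah do not show this.

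The promoters below are those of Actg1 and Cnn2, which carry a CArG box, and of Pfn1 and Enah, which have none in this window. RefSeq promoter sequences (GRCm38.p6, 250 bases before to 50 after the gene's start) were matched for 8 of the 9 genes; Actb is named only. Each is written 5′ to 3′ on the gene's strand, and capitals mark a CArG box or the letters GGGCGG on either strand (CCGCCC as written here); overlapping copies run together. The windows are chr11:120348446-120348745, minus strand, for Actg1; chr10:79988350-79988649, plus strand, for Cnn2; chr11:70654601-70654900, minus strand, for Pfn1; and chr1:182019931-182020230, minus strand, for Enah.
Actg1: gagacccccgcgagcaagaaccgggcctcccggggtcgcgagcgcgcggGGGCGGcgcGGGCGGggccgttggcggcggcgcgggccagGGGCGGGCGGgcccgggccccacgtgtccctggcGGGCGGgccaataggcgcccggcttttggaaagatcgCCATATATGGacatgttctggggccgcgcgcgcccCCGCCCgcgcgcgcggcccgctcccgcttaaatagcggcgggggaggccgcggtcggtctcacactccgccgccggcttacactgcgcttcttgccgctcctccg
Cnn2: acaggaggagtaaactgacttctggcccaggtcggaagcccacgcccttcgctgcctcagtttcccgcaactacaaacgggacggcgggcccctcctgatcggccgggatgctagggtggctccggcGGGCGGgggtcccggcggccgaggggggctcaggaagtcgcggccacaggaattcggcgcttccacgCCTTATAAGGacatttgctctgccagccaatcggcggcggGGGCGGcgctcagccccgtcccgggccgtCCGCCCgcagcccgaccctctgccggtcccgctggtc
Pfn1: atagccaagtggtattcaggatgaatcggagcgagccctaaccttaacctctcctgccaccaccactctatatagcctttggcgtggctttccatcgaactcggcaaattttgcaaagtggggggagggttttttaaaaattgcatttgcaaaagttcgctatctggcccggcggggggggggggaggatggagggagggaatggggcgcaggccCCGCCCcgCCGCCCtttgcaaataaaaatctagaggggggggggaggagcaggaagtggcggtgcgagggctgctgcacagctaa
Enah: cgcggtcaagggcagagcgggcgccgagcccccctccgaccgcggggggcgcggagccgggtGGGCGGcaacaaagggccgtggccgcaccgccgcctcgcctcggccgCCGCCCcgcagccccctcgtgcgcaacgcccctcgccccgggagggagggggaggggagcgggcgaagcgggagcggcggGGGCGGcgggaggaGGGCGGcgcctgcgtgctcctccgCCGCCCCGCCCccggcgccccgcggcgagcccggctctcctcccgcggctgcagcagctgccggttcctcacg
The CArG box of Actg1 begins 90 bases before the gene's start and reads CCATATATGG; that of Cnn2 begins 56 bases before it and reads CCTTATAAGG. No other of the 8 matched promoters held one, and 1.63% of 32851 RefSeq promoters of this length did. The log2 differences of these genes were -0.48 for Actg1 and -0.59 for Cnn2. Genes without a box stood at -1.14 (Pfn1), -0.75 (Cap1), -0.62 (Cfl1), -0.61 (Lasp1), -0.47 (Tes) and 0.36 (Enah). A link of the box to the differences was not tested. The letters GGGCGG were in 7 of the 8, all but Cap1, and in 35.66% of all promoters. A match describes the letters only.

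Of the cytoplasmic actins, Actg1 (γ-actin, chromosome 11) had lower signals in 4 of 5 knockout libraries than in both wild type libraries. For Actb (β-actin, chromosome 5) only the dimmer probe set did so, and the groups of both genes overlapped. The single Actg1 probe set, 1415779_s_at, read 27854, 12351, 12357, 21070 and 16656 in knockout libraries 1 to 5, against 25652 and 22423 in wild type libraries. Library 1 was the highest of all 7 and libraries 2 and 3 were the lowest, so the groups overlapped. The log2 difference was -0.48 (SE 0.32, 95% interval -1.19 to 0.23, limma adjusted p = 0.597), and -0.17 (interval -0.67 to 0.34, adjusted p = 0.895) without knockout libraries 2 and 3. By Affymetrix naming, the suffix _s marks probes shared by several transcripts and _x probes that may bind unrelated ones, so signals of such probe sets, this one among them, can include other transcripts.

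Both Actb probe sets overlapped between the groups and differed from each other. The brighter, 1436722_a_at, read 19805, 13007, 11652, 11512 and 10641 in knockout libraries 1 to 5, against 15869 and 10723 in wild type libraries. Its group means were nearly equal, at 13323 ± 3721 (SD, n = 5) in knockout and 13296 ± 3639 (SD, n = 2) in wild type libraries (log2 difference -0.01, 95% interval -0.63 to 0.61, limma adjusted p = 0.994), and the sign turned to 0.15 with quantile normalization and to 0.04 without knockout libraries 2 and 3. The dimmer, 1419734_at, read 5252, 2224, 2485, 2813 and 2807 in knockout libraries, against 5423 and 3006 in wild type libraries. Here libraries 2 to 5 lay below both wild type libraries and library 1 lay between them (difference -0.44, SE 0.38, limma adjusted p = 0.665).

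The array also carries control probe sets for the 5′ end, the middle and the 3′ end of the Actb transcript, which are not counted as members and read RNA integrity and labelling. The 5′ control read 6750, 6055, 5100, 3153 and 3601 in knockout libraries 1 to 5, against 6467 and 2798 in wild type libraries. The 3′ control read 19515, 10499, 9461, 12069 and 11518 in knockout libraries, against 17789 and 11842 in wild type libraries. The pair of knockout libraries 2 and 3 was thus lowest at the 3′ end and lay between the wild type libraries at the 5′ end. Against the wild type mean their mean log2 deviation was 0.38 at the 5′ end, 0.06 in the middle and -0.54 at the 3′ end, while that of knockout libraries 1, 4 and 5 was -0.00, 0.08 and -0.06. On the log2 scale the 3′ control exceeded the 5′ control by 0.79 and 0.89 in knockout libraries 2 and 3, against 1.46 to 2.08 in the remaining libraries. The same value for Gapdh was -0.31 and -0.27, against -0.17 to 1.32. For the spiked-in Lys control, which is not RNA of the cells, it was 0.70 and 1.02 in knockout libraries 2 and 3. That was lower than in each remaining library, with 1.92 and 2.26 in wild type libraries 1 and 2. The cause of these lower 3′ to 5′ values, and their part in the lower signals of the other genes, was not tested.

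**Figure D2:**
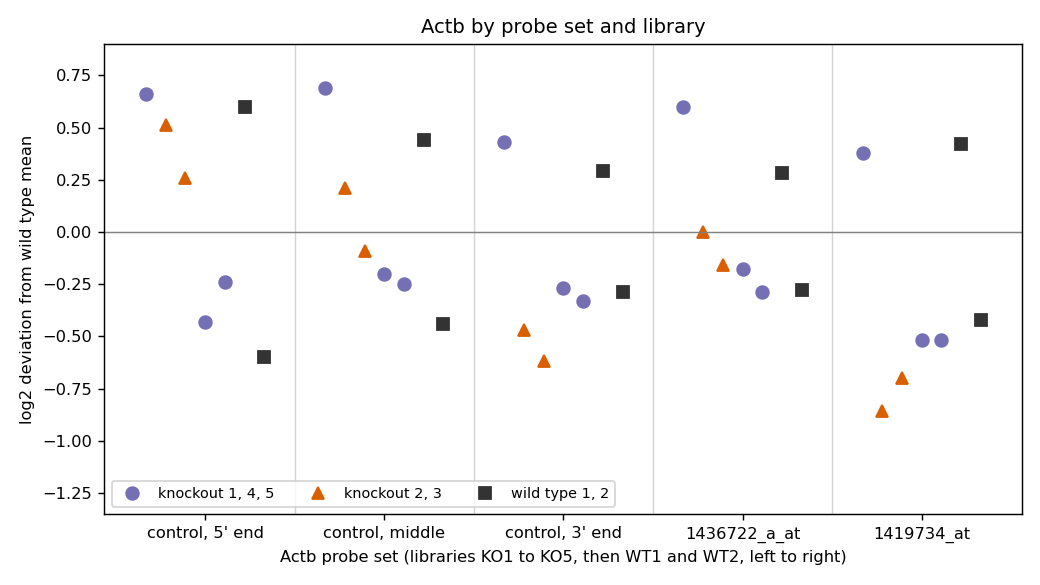
Log2 deviation of each library from the wild type mean (vertical axis) for the 3 Actb control probe sets and the 2 Actb member probe sets; symbols mark knockout libraries 1, 4 and 5, knockout libraries 2 and 3, and wild type libraries. Knockout libraries 2 and 3 lie at 0.51 and 0.26 at the 5′ end and at -0.47 and -0.62 at the 3′ end.

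Among the filament turnover genes, the lowest readings of the whole set relative to wild type came from Cfl1 and Pfn1 in knockout libraries 2 and 3. For Cfl1 (chromosome 19) the brighter probe set, 1455138_x_at, read 16517, 7858, 7130, 13464 and 11986 in knockout libraries 1 to 5, against 17895 and 15518 in wild type libraries. Libraries 2 to 5 lay below both wild type libraries, and library 1 lay between them. The difference was -0.62 (SE 0.33, 95% interval -1.36 to 0.12, limma adjusted p = 0.575), and -0.26 (interval -0.70 to 0.17, adjusted p = 0.831) without knockout libraries 2 and 3. The other Cfl1 probe set, 1448346_at, read 9593, 959, 1098, 4031 and 4536 in knockout libraries, against 10663 and 5360 in wild type libraries. Its mean in knockout libraries 2 and 3 was 12.8% of the wild type mean, where the brighter probe set gave 44.9%, so the 2 probe sets put the same libraries at different depths below wild type. In knockout libraries 1, 4 and 5 they gave 75.6% and 83.7%. The difference of 1448346_at was -1.40 (SE 0.82, interval -3.24 to 0.43, limma adjusted p = 0.581).

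Pfn1 (chromosome 11), read by 1449018_at alone, had signals of 10193, 1702, 1802, 6123 and 5985 in knockout libraries 1 to 5, against 14455 and 5670 in wild type libraries. The same pair lay at 17.4% of the wild type mean, and libraries 1, 4 and 5 lay between the 2 wild type libraries, which themselves differed 2.55-fold. The difference was -1.14 (SE 0.71, interval -2.72 to 0.44, limma adjusted p = 0.587), and -0.33 (interval -1.23 to 0.57, adjusted p = 0.880) without knockout libraries 2 and 3. For Cap1 (chromosome 4), 1417461_at read 4613, 1538, 1580, 4340 and 3820 in knockout libraries, against 5537 and 4179 in wild type libraries. Libraries 1 and 4 lay within the wild type range and library 5 just below it, while libraries 2 and 3 were at 32.1% of the wild type mean (difference -0.75, SE 0.49, limma adjusted p = 0.596; -0.18 without them, adjusted p = 0.882). The second Cap1 probe set, 1417462_at, read 2809, 1156, 1159, 1013 and 1924 in knockout libraries, against 2902 and 1187 in wild type libraries. There knockout library 4 was the lowest of all, and libraries 2 and 3 were close to wild type library 2 (difference -0.31, SE 0.47, limma adjusted p = 0.806).

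Among the filament-binding and LIM-domain genes, Lasp1 gave the 1 member probe set whose groups did not overlap on the deposited scale. Lasp1 (chromosome 11), whose protein joins a LIM domain to actin-binding repeats and an SH3 domain, has 9 probe sets here. The probe set 1460173_at read 3354, 1333, 1573, 3941 and 3240 in knockout libraries 1 to 5, against 6371 and 4167 in wild type libraries. Every knockout signal was under the lower wild type one, with library 4 nearest to it. That was 1 of the 24 probe sets; 5.85% of all tested were lower without overlap, and 7.80% higher. The count depended on the scaling. With each array centred on its median, Cfl1 1455138_x_at was also lower without overlap (2 of the 24, against 9.06% of all tested lower and 4.73% higher). With quantile normalization these 2 were lower and Enah 1424800_at higher without overlap, against 7.99% of all tested lower and 5.71% higher. On the deposited scale the difference of Lasp1 1460173_at was -1.06 (SE 0.45, interval -2.08 to -0.04, limma adjusted p = 0.575). Without knockout libraries 2 and 3 it was still, on that scale, the only 1 of the 24 without overlap, lower at -0.56 (interval -1.12 to 0.01, adjusted p = 0.820), where 8.99% of all tested were lower in that way and 11.3% higher.

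The brightest Lasp1 probe set, 1438634_x_at, read 4189, 2558, 3056, 5951 and 5575 in knockout libraries, against 7164 and 5339 in wild type libraries. Libraries 4 and 5 lay within the wild type range and libraries 1, 2 and 3 below it (difference -0.61, SE 0.36, limma adjusted p = 0.583; -0.25 without knockout libraries 2 and 3). Of the remaining 7, 4 were alike, at -0.59 to -0.64. These were 1455470_x_at, 1438633_x_at, 1439264_x_at and 1456309_x_at, of which the last kept -0.52 without knockout libraries 2 and 3 and the other 3 stood at -0.12 to -0.22. A pair of dim ones stood differently, 1456469_x_at at -0.02 and 1456578_x_at at 0.23, whose highest signals, 703 and 699, were in knockout libraries 2 and 3. The ninth, 1448207_at, was under the filter, with 6.20 to 45.1 in knockout libraries and 76.8 and 40.8 in wild type libraries.

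Cnn2 (chromosome 10), a calponin that binds along filaments, has 1 probe set, 1450981_at, with signals of 3473, 1948, 1845, 4371 and 3001 in knockout libraries 1 to 5, against 5565 and 3128 in wild type libraries. Libraries 1 and 4 lay between the wild type libraries, library 5 just below the lower one, and libraries 2 and 3 at 43.6% of the wild type mean (difference -0.59, SE 0.40, limma adjusted p = 0.603; -0.22 without them, adjusted p = 0.892). For Tes (chromosome 6), a LIM protein of focal adhesions that binds Mena and zyxin, 1460378_a_at read 552, 378, 359, 708 and 643 in knockout libraries, against 829 and 613 in wild type libraries. The other probe set, 1424246_a_at, read 480, 322, 313, 661 and 592 in them, against 1069 and 559 in wild type libraries. Both put libraries 4 and 5 within the wild type range and libraries 1, 2 and 3 below it, with libraries 2 and 3 lowest. Their differences were -0.47 (SE 0.34, limma adjusted p = 0.624) and -0.75 (SE 0.39, adjusted p = 0.575), and -0.17 and -0.42 without knockout libraries 2 and 3.

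While Actb stood at -0.01, Enah (chromosome 1) was the only 1 of the 9 genes with a positive difference by its brightest probe set. Its brightest probe set, 1424800_at, read 14784, 13122, 13511, 11863 and 10714 in knockout libraries 1 to 5, against 8379 and 11786 in wild type libraries. Libraries 1 to 4 lay above both wild type libraries, library 4 by a small margin, and library 5 between them. The difference was 0.36 (SE 0.22, interval -0.13 to 0.84, limma adjusted p = 0.587), and 0.31 (interval -0.20 to 0.82, adjusted p = 0.830) without knockout libraries 2 and 3. A second bright probe set, 1424801_at, stood at 0.32, and at 0.35 without those libraries. Of the dimmer ones, 1442223_at read 1640, 1943, 2452, 637 and 992 in knockout libraries, against 471 and 912 in wild type libraries. Its highest signals came from knockout libraries 2 and 3, and library 4 lay between the wild type libraries (difference 1.05, SE 0.51, interval -0.10 to 2.20, limma adjusted p = 0.575). The probe set 1455375_at had the same pair highest, at 901 and 1066 (difference 0.88). By contrast, 1421624_a_at had that pair at 603 and 668, below both wild type libraries at 849 and 1396 (difference -0.27), so the Enah probe sets did not share 1 direction. The sixth, 1431162_a_at, was under the filter, with 5.40 to 97.2 in knockout libraries and 26.1 and 29.9 in wild type libraries.

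**Figure D3:**
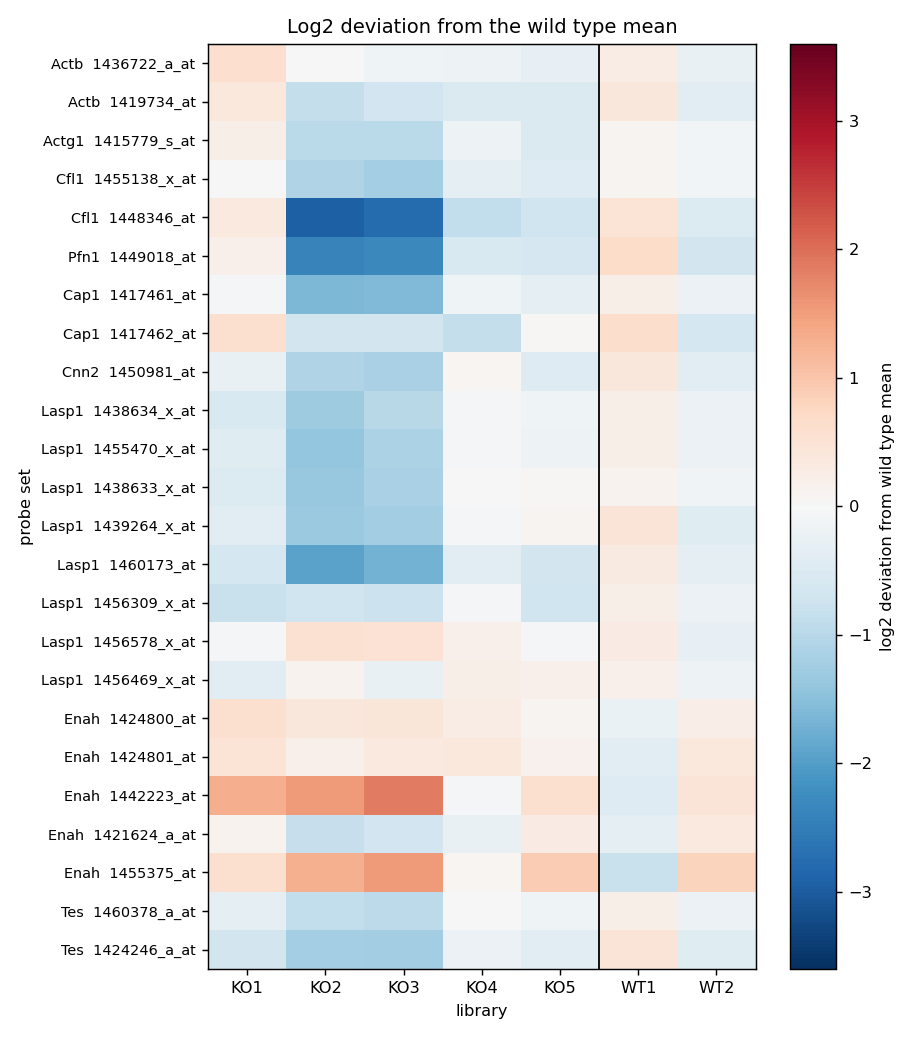
Log2 deviation from the wild type mean (colour) for the 24 tested probe sets (rows) in each library (columns), with knockout libraries left of the line. The columns of knockout libraries 2 and 3 are blue for most rows, deepest for Cfl1 1448346_at and Pfn1, and red for Enah 1442223_at and 1455375_at.

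Library by library, the median deviation of the 9 genes from the wild type mean was -0.01, -1.08, -1.01, -0.15 and -0.33 in knockout libraries 1 to 5, against 0.21 and -0.21 in wild type libraries 1 and 2. Knockout libraries 1 and 4 thus lay within the range of the wild type pair, library 5 just below it and libraries 2 and 3 far below. The medians over all tested probe sets were between -0.05 and 0.14 in the 7 libraries. In this pair, 17 and 18 of the 24 probe sets lay below both wild type libraries, against 34.6% and 32.5% of all tested, while knockout libraries 1, 4 and 5 had 8, 6 and 9, against 26.9%, 30.8% and 27.3%. Wild type library 1 was above wild type library 2 for 19 of the 24, several of which read the same gene. That share over all tested probe sets is not given here, but their median deviations in wild type libraries 1 and 2 were 0.05 and -0.05. A difference of a single wild type pair as wide as that of the 9 genes limits what the comparison can show. On simulated data made from these arrays a true log2 change of 1 was called for 4% of changed probe sets and a change of 2 for 52%. The simulated noise was independent, while knockout libraries 2 and 3 moved together here, so these rates may not hold for the members.

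**Figure D4:**
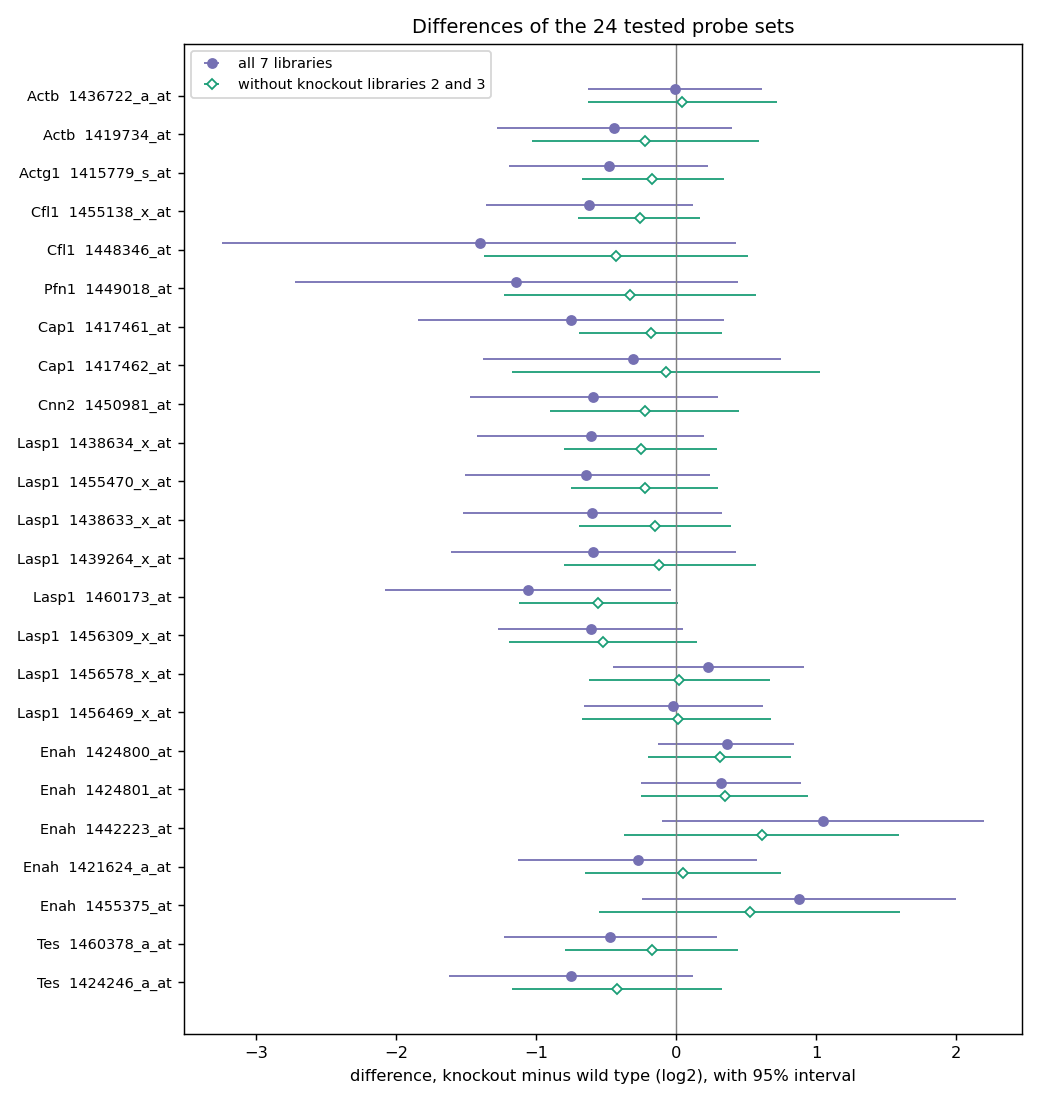
Log2 difference, knockout minus wild type (horizontal axis), for each tested probe set, with its 95% interval from limma. Filled circles use all 7 libraries and open diamonds leave out knockout libraries 2 and 3; with all libraries 1 interval, that of Lasp1 1460173_at, leaves out 0, and without the pair no interval does.

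Other genes of actin dynamics were taken from 6 lists, with the brightest probe set standing for a gene. Of 74 tested genes 0 passed the limma threshold, where 0.0229% of 13120 genes did, and 6 had an unadjusted p under 0.05, 3 of them lower (8.11%, against 7.60% of all genes). The median differences of all 6 lists were negative, against -0.004 over all genes, of which 6600 of 13120 were negative. The genes for monomer binding, severing and recycling had 9 of 13 negative, with a median of -0.31. Their brightest members were the thymosins, which hold actin monomers: Tmsb10 averaged 15160 ± 4372 in knockout and 19423 ± 335 in wild type libraries (SD, n = 5 and 2; difference -0.40), and Tmsb4x stood at 0.16. The Arp2/3 complex, which starts branches on filaments, and its activators had 10 of 17 negative, with a median of -0.25, where Actr3 stood at 0.07 and Arpc2 at -0.31. Genes of barbed-end capping and elongation had 7 of 12 negative, with a median of -0.09, where the capping protein genes Capzb and Capza1 stood at -0.61 and -0.12.

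Filament crosslinkers and side binders had 11 of 17 negative, with a median of -0.31. Their brightest members were Actn4, an α-actinin, at 0.01, and Cnn3, a calponin like Cnn2, with 7793 ± 2825 in knockout and 11805 ± 203 in wild type libraries (difference -0.68, SE 0.36, limma adjusted p = 0.575). LIM proteins of adhesions had 9 of 12 negative, with a median of -0.44, where Ajuba stood at -0.56 and Pdlim1 at -0.77. Of the muscle actins 3 were tested, where Acta2, the smooth muscle actin, averaged 1719 ± 743 in knockout and 3435 ± 520 in wild type libraries (difference -1.10, limma adjusted p = 0.575) and Acta1 stood at 0.71.

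As with the 9 genes, the list medians were lowest in knockout libraries 2 and 3 for 5 of the 6 lists, at -0.36 to -0.70 in these libraries. The muscle actins, with -0.46 and -0.54 there and -0.72, -0.33 and -1.02 in knockout libraries 1, 4 and 5, were the exception. For crosslinkers and side binders the pair was hardly set apart, as knockout library 5 stood at -0.35 and knockout library 2 at -0.36. Without knockout libraries 2 and 3 the medians were -0.15 for monomer binding, -0.015 for Arp2/3 and 0.12 for capping and elongation. They were -0.18 for crosslinkers and -0.20 for LIM proteins, against a median of -0.012 over all genes. The list of capping and elongation genes thus changed sign. For muscle actins the median was -0.33, but 4 genes were then tested, so it does not cover the same genes as before. The 3 tested before stood at -1.51 (Acta2), -0.69 (Actc1) and 0.66 (Acta1), against -1.10, -0.74 and 0.71 with all libraries.

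**Figure D5:**
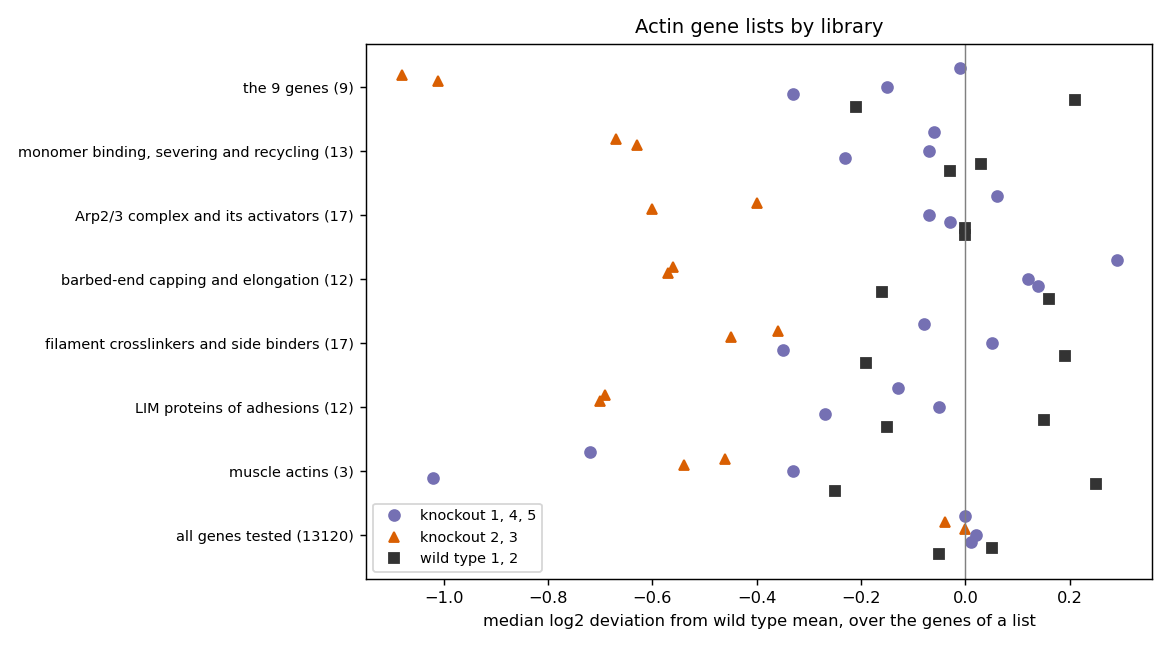
Median log2 deviation from the wild type mean (horizontal axis) over the tested genes of each actin list (number in brackets), 1 point per library. Triangles, for knockout libraries 2 and 3, lie at -1.08 and -1.01 for the 9 genes and left of the other libraries for all lists but the muscle actins, while for all genes tested the 7 libraries lie between -0.05 and 0.05.

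The pattern of Actg1 over the 7 libraries was closest to that of Ranbp1, which encodes a binding partner of the GTPase Ran, with a mean absolute log2 difference of 0.054 between their profiles after each was centred on its mean. Ybx1, a nucleic acid-binding protein gene, followed at 0.081 and Plcb3, a phospholipase C gene, at 0.085, among 12419 genes compared. Ranbp1 read 15203, 7393, 7402, 12544 and 10526 in knockout libraries 1 to 5, against 14340 and 13464 in wild type libraries and was, like Actg1, lowest in knockout libraries 2 and 3. Among the other members, Cfl1 was at 0.099, the 14th closest gene to Actg1, and Actb was at 0.319. The profiles closest to Actb were those of Strc, Fgd1 and Gipc1, at 0.081, 0.085 and 0.092, of which Fgd1 encodes an exchange factor for Cdc42. Strc was dim, with signals of 75.2 to 159.9 where the array medians ran from 92.6 to 124.9. By their brightest probe sets the 2 cytoplasmic actins thus had different nearest genes, and no test was made of this. The dimmer Actb probe set was not compared in this way.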

How the data were processed

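The authors deposited linear MAS5 signal intensities, per the submitters' processing notes, which give no version. Trimmed of 2% of probe sets at either end, every array averaged 500.0, so each signal is relative to its own array. The table holds no detection calls. Signals were converted to log2(signal + 20.2), the 20th percentile of all values, which understates changes of dim probe sets. After 64 control probe sets were left out, the 27022 probe sets whose mean on this scale exceeded the 40th percentile were tested with limma 3.58.1 in R 4.3.3 (eBayes with a trend, two-sided, Benjamini-Hochberg, threshold 0.05), with no covariates. Array medians ran from 92.6 to 124.9, highest in knockout libraries 2 and 3 (114.4 and 124.9), and no further scaling was applied. Gene names come from the platform annotation, with 34754 of 34958 single-symbol probe sets matched to RefSeq genes (GRCm38.p6).

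All 9 genes and every probe set were named. From each list the 2 brightest genes were named (1 further list is not reported here), and for Actb and Actg1 the 3 genes with the closest profiles. The genes, lists, tests and alternatives were chosen with earlier results of these data known. On simulated data with 200 changed items over 27022 probe sets, with independent noise, 4%, 52%, 94% and 92% of log2 changes of 1, 2, 3 and 4 were called, with 4 false calls. The number of arrays limits the precision. Alternatives were other scalings, filters, pseudocounts and variance models, array weights, 1 probe set per gene, a replicate block, and each library left out in turn; fits without knockout libraries 2 and 3, and with them as a batch term, were added after the data were seen. Figures were drawn with matplotlib 3.10.9.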

Additional observations from a re-analysis of the deposited data

Results flagged for a closer look

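Over 25 probe sets (the 24 tested and the brightest of Calr), 2 had a knockout library far from the other 4, judged by its gap to the nearest of them against the range of the group; chance gives about 1 in 20 such groups. Actb 1419734_at read 5252 in knockout library 1, against 2224 to 2813 in the other knockout libraries and 5423 and 3006 in wild type libraries. Lasp1 1456309_x_at read 3385 in knockout library 4, against 1983 to 2113 in the other knockout libraries and 4011 and 3026 in wild type libraries.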

How the results depend on the processing

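No member probe set passed the threshold under any of the 19 alternatives, and 8 of the 9 genes kept the sign of their brightest probe set in all of them. Actb (-0.008; -0.29 to 0.27 with a single library left out) turned to 0.15 with quantile normalization, 0.30 with the replicate number as a block, 0.27 without wild type library 1, 0.031, 0.035 and 0.06 without knockout library 3, 4 or 5, and 0.043 without knockout libraries 2 and 3 or with them as a batch term. Sizes depended on the wild type pair: Pfn1 stood at -0.47 without wild type library 1 and -1.81 without library 2, Cnn2 at -0.172 and -0.999, Lasp1 at -0.40 and -0.82, Tes at -0.26 and -0.68, Enah at 0.11 and 0.60, and the median of the LIM protein list at -0.31 and -0.73. Of all probe sets 8 were called; the count was 5 with no filter, 4 at the 60th percentile, 2 with 1 probe set per gene, 15 with the replicate block, 5 without knockout libraries 2 and 3 and 0 to 7 with a single library left out (0 without wild type library 1 or 2). Between libraries that share a replicate number (1 and 2), deviations from the group means correlated at 0.11 and -0.01. With 2 wild type libraries, whose deviations mirror each other, this cannot settle whether libraries were paired. The block changed no call of a member. Calr stood at -3.78 to -3.52 with a library left out, and lost its call without wild type library 1 (-3.58, limma adjusted p = 0.253) or 2 (-3.78, adjusted p = 0.129), where the lone wild type library is assumed to vary like the knockout libraries. With a single library left out the list median of crosslinkers ran from -0.44 to -0.05 and that of muscle actins from -1.26 to -0.15. That of Arp2/3 genes ran from -0.34 to -0.09 (the highest without knockout library 2, and -0.10 without library 3). That of capping genes turned to 0.09, 0.01 and 0.03 without wild type library 2, knockout library 2 and knockout library 3. Without both knockout libraries 2 and 3 the muscle actins stood at -0.33, over the 4 genes then tested. The causes were not tested. Signals near the array's low end have no detection call, which limits the 2 probe sets under the filter.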
